A study of Mus musculus with 8 samples.

Results

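Cluster 3 is 1 of the 6 groups into which the authors had sorted 9076 single lung group 2 innate lymphoid cells (ILC2s) by gene expression. Its members were taken as every cell that carried the cluster number 3 in the deposited cell table, which gave 1198 cells, or 13.2% of all cells and 14.6% of all unique molecular identifiers (UMIs, each standing for 1 captured RNA molecule). The ILC2s came from the lungs of wild type C57BL/6 male mice and were run as 1 droplet (10x) pool in which antibody hashtags marked the cells of each source. The cell table gives hashtags 6, 7 and 8 to IL-33 plus dopamine, hashtags 3, 4 and 5 to IL-33 and hashtags 1 and 2 to PBS without IL-33. Dopamine, a catecholamine, or PBS as its vehicle was given through the nose together with IL-33 for 3 days. The sample labels name only IL-33 with PBS or dopamine, so the PBS hashtags rest on the cell table alone. The labels do not say that a hashtag was 1 mouse, and p-values measure the spread between hashtags. A separate set of 6 bulk libraries, each of 2000 ILC2s from female wild type C57BL/6 mice, held 3 libraries of IL-33 plus dopamine and 3 of IL-33 plus PBS.

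ILC2s are tissue lymphocytes without antigen receptors. In the lung they respond to IL-33, an alarmin released by damaged epithelium, through the receptor encoded by Il1rl1, and the transcription factor GATA3 keeps their identity and opens the type 2 cytokine locus. Their IL-5 recruits and keeps eosinophils, their IL-13 acts on smooth muscle and mucus-producing cells, and their amphiregulin, the product of Areg, supports epithelial repair. Cytokine genes of this kind are switched on by NF-kB and AP-1 factors, and the signal is shaped by cyclic AMP, which neurotransmitters and neuropeptides can raise or lower through receptors on the cell.

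Cluster 3 held 143, 204 and 296 cells of IL-33 plus dopamine hashtags 6, 7 and 8, 115, 110 and 181 cells of IL-33 hashtags 3, 4 and 5, and 64 and 85 cells of PBS hashtags 1 and 2. Summed over its cells, the UMI totals of the hashtags lay between 311868 (hashtag 1) and 1525846 (hashtag 8). Its median cell had 5480.5 UMIs, 1694 genes and 3.63% of UMIs from mitochondrial DNA. The median UMIs per cell of the other clusters were 4082 in cluster 0, 4613 in cluster 1, 4704 in cluster 2, 5160 in cluster 4 and 8142 in cluster 5, so cluster 3 stood second in depth. Within cluster 3 the median UMIs per cell lay between 4827.5 (hashtag 8) and 6205 (hashtag 3). The mean profile of cluster 3 over 5596 genes lay nearest to cluster 2 (Pearson r across genes 0.9664) and farthest from cluster 1 (r 0.8767). Genes are not independent replicates, and these correlations describe profiles that share the pool.

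**Figure D1:**
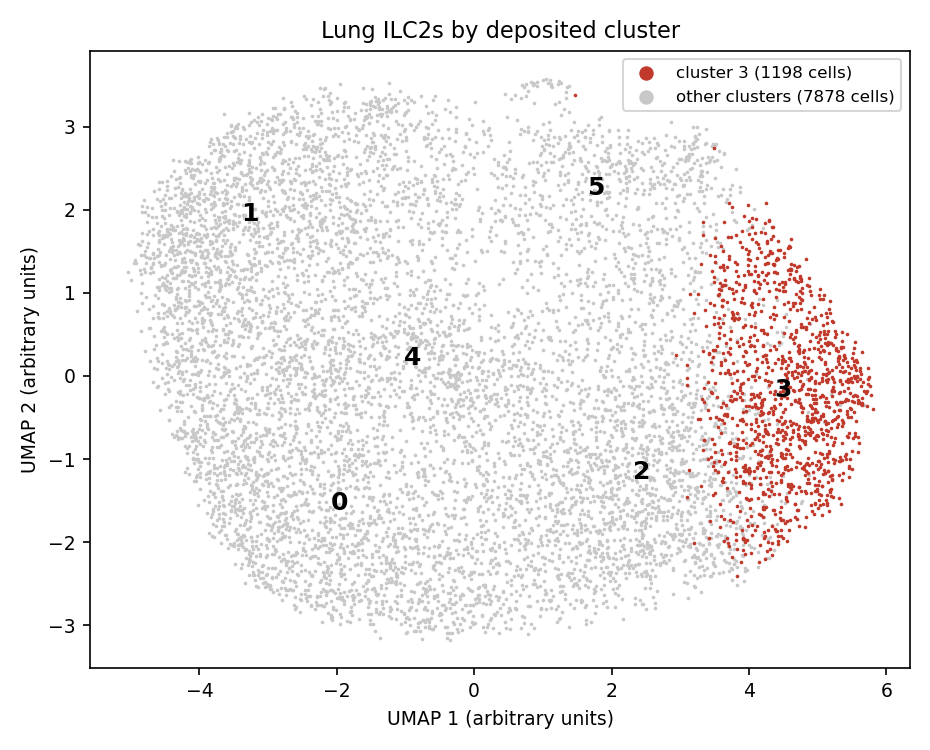
Each point is 1 of the 9076 cells at the coordinates of the authors' 2-dimensional map (UMAP, arbitrary units on both axes). The 1198 cells of cluster 3 are coloured over the cells of the other 5 clusters.

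The cells carried the markers of the ILC2 lineage. Gata3 had a UMI in 99.6% of cluster 3 cells, and Il1rl1 in 96.4%. Lyz2, an abundant myeloid transcript that serves here as a measure of free RNA or stray cells, had a UMI in 0.334% of them. Of 16 T cell markers 15 were in the table, and their summed level was 1099 UMIs per 1000000 UMIs (CPM) in cluster 3 and 1137 CPM in the other cells. Within cluster 3 this sum ran from 1117 to 1136 CPM in the IL-33 plus dopamine hashtags, from 1105 to 1269 CPM in the IL-33 hashtags and from 930 to 967 CPM in the PBS hashtags, and 3 of the 15 were at 0. Most of it came from Trbc1 and Trbc2, the constant segments of the T cell receptor beta chain, which ILC2s also transcribe. Cd3g, a chain of the T cell receptor complex, averaged 42.2 CPM in cluster 3 and 77.5 CPM in the other cells. Neutrophil markers summed to 0.534 CPM in cluster 3 and 4.27 CPM in the other cells, eosinophil markers to 0.379 CPM in cluster 3 and 0.437 CPM in other cells, and B cell markers to 49.0 CPM in cluster 3 and 84.0 CPM in other cells. NK cell and ILC1 markers summed to 717 CPM in cluster 3 and 784 CPM in the other cells, and ILC3 markers to 671 CPM in cluster 3 and 897 CPM in other cells, most of it Ltb. Endothelial markers summed to 39.7 CPM in cluster 3 and 20.9 CPM in the other cells, basophil and mast cell markers to 31.7 CPM in cluster 3 and 17.0 CPM in other cells, and fibroblast markers to 9.34 CPM in cluster 3 and 2.06 CPM in other cells. Macrophage and monocyte markers summed to 480 CPM in cluster 3 and 565 CPM in the other cells, of which Ccr2, which lymphocytes also express, made 474 CPM in cluster 3 and 561 CPM in other cells. Dendritic cell markers summed to 109 CPM in cluster 3 and 77.7 CPM in the other cells, lung epithelial markers to 118 CPM in cluster 3 and 123 CPM in other cells, and erythroid markers to 70.3 CPM in cluster 3 and 85.1 CPM in other cells. The part of other cell types in the results that follow was not tested.

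Il5 and Il13, the cytokine genes, were among the 20 genes with the highest ratio of cluster 3 to all other cells. With them stood Tnfrsf9, Rel, Crem, Plaur, Kdm6b and Ramp3, and the heat-shock genes Hspa1a and Hspa1b were among the lowest. The authors had made the clusters from the expression of these same cells, so ratios between cluster 3 and the other cells are given as a description, without a test. A level is the mean of the hashtags' CPM, and a ratio is the mean over the 8 hashtags of log2(CPM + 1) in cluster 3 minus log2(CPM + 1) in the other cells, with its SD. The level of a single other cluster leaves out hashtags with fewer than 20 of its cells. For cluster 5 this was PBS hashtag 1, with 8 cells. Of 2376 genes with at least 50 CPM in cluster 3, 618 (26.0%) were higher there than in the other cells of the same hashtag in all 8 hashtags, 180 of them with a mean log2 ratio of at least 1. Of 2498 genes with at least 50 CPM in the other cells, 815 (32.6%) were lower in all 8 hashtags, but only 40 with a mean log2 ratio of -1 or less.

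Il5, which encodes the eosinophil growth factor IL-5, had the highest ratio. In cluster 3 it stood at 2644, 2560 and 2622 CPM in the IL-33 plus dopamine hashtags, at 2036, 2784 and 2072 CPM in the IL-33 hashtags and at 1299 and 1701 CPM in the PBS hashtags. In the other cells of the same hashtags it stood at 229, 308 and 200 CPM, at 207, 271 and 257 CPM, and at 190 and 191 CPM. The lowest cluster 3 value was thus above the highest value of the other cells, and the log2 ratio was 3.23 ± 0.30 (SD, n = 8 hashtags). Cluster by cluster, the level was 2215 CPM in cluster 3, 745 CPM in cluster 5 and 385 CPM in cluster 2, against 91.1, 109 and 51.8 CPM in clusters 0, 1 and 4. Cluster 3 therefore held 62.8% of all Il5 UMIs with 13.2% of the cells, and this share ran from 46.5% in hashtag 3 to 80.1% in hashtag 8.

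Il13, which encodes IL-13 and is a neighbour of Il5 on chromosome 11, followed the same order of clusters. It stood at 1124, 1132 and 1093 CPM in the IL-33 plus dopamine hashtags of cluster 3, at 1063, 1146 and 1371 CPM in its IL-33 hashtags and at 885 and 1102 CPM in its PBS hashtags. In the other cells it averaged 185 ± 45.4 CPM (SD, n = 8), and the log2 ratio was 2.62 ± 0.35. The level was 612 CPM in cluster 5 and 253 CPM in cluster 2, and between 58.6 and 78.5 CPM in clusters 0, 1 and 4. Cluster 3 held 50.1% of all Il13 UMIs. Il4, the third cytokine gene of the locus, did not share this difference: it averaged 55.3 CPM in cluster 3 and 42.7 CPM in the other cells, higher in cluster 3 in 6 of 8 hashtags, and cluster 3 held 18.2% of its UMIs.

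Expression of the cytokine genes was uneven among cluster 3 cells. A UMI of Il5 was found in 78.3% of them and a UMI of Il13 in 51.4%. With every cell thinned to 1800 UMIs, Il5 was found in 64.7% of cluster 3 cells, against 36.8% in cluster 5, 23.3% in cluster 2 and between 8.12% and 14.2% in clusters 0, 1 and 4, and cluster 3 was also the highest for Il5 without thinning. For Il13 the order depended on depth: a UMI was found in 51.4% of cluster 3 cells and 54.8% of the deeper cluster 5 cells without thinning, and in 38.1% and 31.0% after it. The median cluster 3 cell had 5 UMIs of Il5 and the highest had 307, and the top 10% of cells held 48.1% of the cluster's Il5 UMIs. Il13 was more concentrated, with a median of 1 UMI, a maximum of 112 and 63.7% of UMIs in the top 10% of cells. In 514 cells (42.9%) both genes were seen, in 424 (35.4%) Il5 alone, in 102 (8.51%) Il13 alone and in 158 (13.2%) neither. After thinning these shares were 27.0%, 37.6%, 11% and 24.3%. A cell without a UMI is not shown to lack the transcript at this depth.

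The stretches just before the start of 4 genes on which the results turn are shown because each holds a word bound by a factor of this pathway. They are the 250 bases upstream of the RefSeq start site on GRCm38.p6, written 5′ to 3′ in the direction of the gene, and positions are counted back from that start. Il5 (chr11:53720544-53720793, plus strand) and Il13 (chr11:53634703-53634952, minus strand) are shown with a GATA word in capitals, found at -72 to -67 in Il5, on the opposite strand, and at -81 to -76 in Il13. Areg (chr5:91139349-91139598, plus strand) is shown with a cyclic AMP response element in capitals at -61 to -54, and Cxcl2 (chr5:90903649-90903898, plus strand) with 2 NF-kB words at -97 to -88 and -78 to -69.
Il5: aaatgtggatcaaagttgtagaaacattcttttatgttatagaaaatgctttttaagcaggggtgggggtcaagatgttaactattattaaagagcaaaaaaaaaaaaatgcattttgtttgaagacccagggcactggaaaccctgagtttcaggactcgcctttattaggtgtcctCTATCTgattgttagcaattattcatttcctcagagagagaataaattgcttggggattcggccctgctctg
Il13: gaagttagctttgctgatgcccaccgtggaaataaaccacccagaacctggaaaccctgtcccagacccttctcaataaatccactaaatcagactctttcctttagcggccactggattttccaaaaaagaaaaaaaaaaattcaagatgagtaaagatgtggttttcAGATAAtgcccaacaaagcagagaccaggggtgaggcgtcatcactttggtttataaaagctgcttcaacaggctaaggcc
Areg: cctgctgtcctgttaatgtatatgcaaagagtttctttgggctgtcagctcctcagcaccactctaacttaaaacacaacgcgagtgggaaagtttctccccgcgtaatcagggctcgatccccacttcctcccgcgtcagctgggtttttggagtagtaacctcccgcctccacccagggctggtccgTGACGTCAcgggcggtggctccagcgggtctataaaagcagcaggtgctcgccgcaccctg
Cxcl2: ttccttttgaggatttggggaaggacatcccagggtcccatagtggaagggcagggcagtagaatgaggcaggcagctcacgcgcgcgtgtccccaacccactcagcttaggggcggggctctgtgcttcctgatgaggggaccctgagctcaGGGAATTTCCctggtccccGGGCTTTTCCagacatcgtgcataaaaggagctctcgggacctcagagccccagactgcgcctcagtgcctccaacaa
The GATA motif was searched on both strands as the word AGATAA, as the word AGATAG, as the word TGATAA and as the word TGATAG, and 26.5% of 32851 RefSeq windows of this length held at least 1. Of 18 windows of the 14 leading genes with an entry, 4 held one (Errfi1, Il13, Il5 and Tnfrsf9). The cyclic AMP response element TGACGTCA was in 1.55% of all windows and in 2 of the 18 (Errfi1 and Plk2). The NF-kB word, GGG and TTTCC with any 2 bases between them, searched on both strands, was in 1.41% of all windows and in 2 of the 18 (Rel and Tnfrsf9). No word of one motif contains a word of another, and a match is a description of letters, not a site in use.

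The other leading genes fell into recognisable roles. Tnfrsf9 encodes the co-stimulatory receptor 4-1BB. It had 110, 147 and 127 CPM in the IL-33 plus dopamine hashtags of cluster 3, 103, 116 and 95 CPM in the IL-33 hashtags and 151 and 163 CPM in the PBS hashtags, and between 10.6 and 14.7 CPM in the other cells (log2 ratio 3.22 ± 0.46). Its values did not overlap those of the other cells, and 32.6% of cluster 3 cells had a UMI of it. Rel encodes the NF-kB subunit c-Rel and was even over the hashtags, between 858 and 930 CPM over the 8 hashtags of cluster 3, against 153 to 239 CPM in the other cells (2.26 ± 0.20). In cluster 5 it stood at 427 CPM and in cluster 2 at 334 CPM. Crem, whose product acts in the transcriptional response to cyclic AMP, ran from 560 to 776 CPM in cluster 3 and from 136 to 185 CPM in the other cells (2.1 ± 0.13). Kdm6b, the gene of a histone H3 lysine 27 demethylase, averaged 743 CPM in cluster 3 and 182 CPM in the other cells (2.04 ± 0.15). Both were higher in each of the 8 hashtags. In cluster 2 Crem stood at 267 CPM and Kdm6b at 367 CPM, and in cluster 5 at 230 and 286 CPM, above clusters 0, 1 and 4.

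Surface and signalling genes made up much of the rest. Ramp3, which encodes a partner protein of the receptor for calcitonin-family peptides, averaged 960 CPM in cluster 3 and 241 CPM in the other cells (2.00 ± 0.14). Plaur, the gene of the urokinase receptor, averaged 213 CPM in cluster 3 and 37.7 CPM in other cells (2.48 ± 0.36). Akap12, which encodes an anchor protein of protein kinase A, averaged 77.5 CPM in cluster 3 and 15.8 CPM in other cells (2.42 ± 0.70), with the widest spread of ratios among the 20. Errfi1, a feedback inhibitor of the epidermal growth factor receptor family, averaged 159 CPM in cluster 3 and 34.8 CPM in other cells (2.17 ± 0.17). Dgat2, an enzyme of triglyceride synthesis, averaged 196 CPM in cluster 3 and 42.0 CPM in other cells (2.23 ± 0.56). Plk2 (72.8 CPM in cluster 3, 9.53 CPM in other cells), a polo-like kinase, and Jdp2 (193 CPM in cluster 3, 45.3 CPM in other cells), an AP-1 family repressor, belonged to the 20 as well, as did Bpnt1, Cwc25, Raph1, Muc1, Basp1, Srrd and Rrad, with log2 ratios between 1.98 and 2.18. The last gene inside the limit of 20 was Rrad at 1.98 and the first outside it was Ptgs2, also at 1.98. With the highest other cluster in place of all other cells, 12 of the 20 stayed among the leading genes, and Rel, Ramp3, Kdm6b, Basp1, Bpnt1, Jdp2, Muc1 and Raph1 left.

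The lowest ratios were those of inducible chaperones, whose high level was in cluster 4. Hspa1a had between 3.21 and 20.6 CPM in cluster 3 and between 57.2 and 115 CPM in the other cells (-3.03 ± 0.81), and Hspa1b averaged 13.3 CPM in cluster 3 and 74.9 CPM in other cells (-2.79 ± 1.01). The 2 genes are near-identical copies, so the division of UMIs between them is uncertain. In cluster 4 Hspa1a stood at 424 CPM and Hspa1b at 338 CPM, while cluster 0 was nearly as low as cluster 3, at 17.6 CPM for Hspa1a and 16.1 CPM for Hspa1b. Txnip, which binds thioredoxin and curbs glucose uptake, averaged 51.0 CPM in cluster 3, 221 CPM in all other cells and 626 CPM in cluster 4 (-2.09 ± 0.50). Cd69, an early activation marker that holds lymphocytes in tissue, averaged 219 CPM in cluster 3 and 713 CPM in other cells (-1.69 ± 0.25). Zfp36l2, which encodes an mRNA decay factor, averaged 353 CPM in cluster 3 and 1044 CPM in other cells (-1.55 ± 0.17). These genes were lower in cluster 3 in all 8 hashtags, as were Pik3ip1, Mns1, Klf9, Rasgrp1, Hnrnpll, Dyrk3 and Dleu2, with log2 ratios between -1.88 and -1.34. The first gene outside the limit of 12 was Fam122a, at -1.34.

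**Figure D2:**
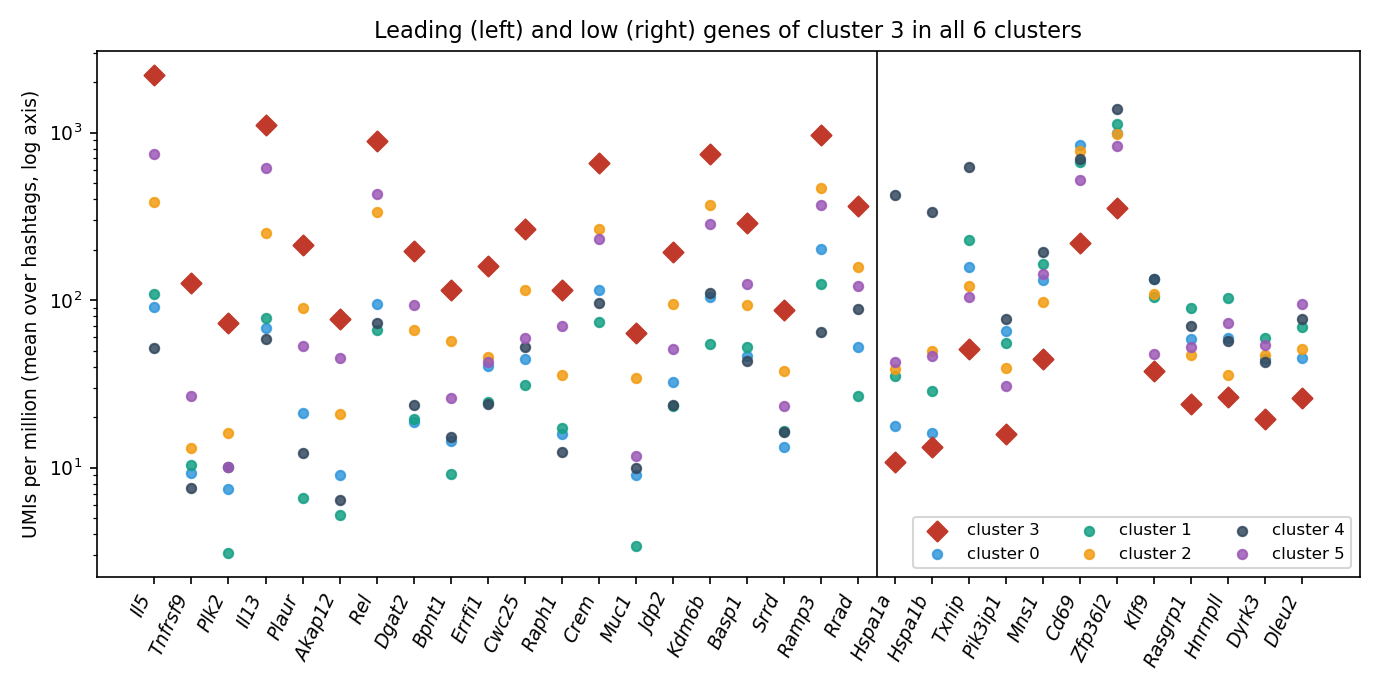
The plot shows the level of the 20 leading genes (left) and of the 12 low genes (right) in each of the 6 clusters. Levels are CPM on a log axis, as the mean over hashtags with at least 20 cells of the cluster. Il5 stood at 2215 CPM in cluster 3 and at 745 CPM in cluster 5, the next highest, and Hspa1a at 10.8 CPM in cluster 3 and 424 CPM in cluster 4.

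Grouped by role, the secreted factors were higher as well. Over the 2705 genes with at least 50 CPM in cluster 3 or in the other cells, 22.8% were higher and 30.1% lower in cluster 3 in all 8 hashtags, and the median log2 ratio was -0.08. Of 14 type 2 effector genes at this level, 6 were higher in all hashtags (Areg, Calca, Csf2, Cxcl3, Il13 and Il5) and 0 were lower, with a median log2 ratio of 0.95. Calca, the gene of the neuropeptide CGRP, averaged 2504 CPM in cluster 3 and 745 CPM in other cells (1.76 ± 0.17), and Areg 2933 CPM in cluster 3 and 1073 CPM in other cells (1.42 ± 0.34). Areg was also high in cluster 5, at 1967 CPM, and in cluster 2, at 1859 CPM, against 427 to 721 CPM in clusters 0, 1 and 4. Csf2, which encodes GM-CSF, averaged 2270 CPM in cluster 3 and 1093 CPM in other cells (1.07 ± 0.28), but its highest level was in cluster 5, at 2846 CPM. Not every effector gene followed, since Lif averaged 57.2 CPM in cluster 3 and 87.0 CPM in other cells (-0.66) and Il2 134 CPM in cluster 3 and 154 CPM in other cells (-0.28). Below the 50 CPM limit, Tnf averaged 4.66 CPM in cluster 3 and 35.2 CPM in the other cells, lower in all 8 hashtags. The summed level of the whole list was 17298 CPM in cluster 3 and 6896 CPM in the other cells. Within cluster 3 it ran from 17519 to 19084 CPM in the IL-33 plus dopamine hashtags, from 17949 to 21069 CPM in the IL-33 hashtags and from 11684 to 13919 CPM in the PBS hashtags.

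Genes of ILC2 identity and of cytokine receptors were mostly higher, with exceptions. Of 20 identity genes, 13 were higher and 4 lower in all hashtags. Gata3 averaged 1653 CPM in cluster 3 and 737 CPM in other cells (1.16 ± 0.13), Rora, the gene of a nuclear receptor needed for ILC2 development, 3292 and 1491 CPM (1.15 ± 0.13), and Id2, which holds cells in the innate lymphoid lineage, 1886 and 807 CPM (1.22 ± 0.28). By cluster, Gata3 was next highest in cluster 2, at 1076 CPM, and in cluster 5, at 949 CPM, against 479 to 761 CPM in clusters 0, 1 and 4. The 4 lower genes were Arg1 (190 CPM in cluster 3, 276 CPM in other cells), Bcl11b (119 CPM in cluster 3, 201 CPM in other cells), Maf (109 CPM in cluster 3, 202 CPM in other cells) and Thy1 (128 CPM in cluster 3, 177 CPM in other cells). Klrg1, a maturation marker, averaged 119 CPM in cluster 3 and 123 CPM in the other cells, and Il7r, the IL-7 receptor gene, 1144 and 1273 CPM, so neither differed in 1 direction in all 8 hashtags. Of 16 receptor genes, 9 were higher and 2 lower in all hashtags. Il2rb, a chain of the IL-2 and IL-15 receptors, averaged 314 CPM in cluster 3 and 108 CPM in other cells (1.52 ± 0.09), Il4ra 214 CPM in cluster 3 and 81.9 CPM in other cells (1.38 ± 0.17), and Il1rl1 1068 CPM in cluster 3 and 707 CPM in other cells (0.59 ± 0.14).

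Signalling genes split by pathway. Of 17 NF-kB genes, 12 were higher and 1, Nfkbid, was lower in all hashtags. Nfkb1, the gene of the p50 precursor, averaged 2182 CPM in cluster 3 and 941 CPM in other cells (1.22 ± 0.12) and Nfkbie, an inhibitor, 137 and 40.9 CPM (1.72 ± 0.20). Tnfaip3, a brake on NF-kB, had 1191 CPM in cluster 3 and 1064 CPM in other cells (0.16 ± 0.15), and its highest level was in cluster 2, at 1482 CPM. Of 17 genes of the cyclic AMP list, 12 were higher and 0 lower. Nr4a3, an orphan nuclear receptor gene, averaged 997 CPM in cluster 3 and 299 CPM in other cells (1.75 ± 0.18) and Rgs2, a regulator of G protein signalling, 2870 and 1299 CPM (1.14 ± 0.12). Areg and Akap12 belong to that list too, so it is not independent of the effector and leading genes. Of 25 immediate early genes, 11 were higher and 4 lower: Dusp5 averaged 838 CPM in cluster 3 and 303 CPM in other cells (1.48 ± 0.24), and Junb 6328 CPM in cluster 3 and 3806 CPM in other cells (0.74 ± 0.13). Jun averaged 296 CPM in cluster 3 and 632 CPM in other cells (-1.10 ± 0.23), Zfp36 196 CPM in cluster 3 and 426 CPM in other cells (-1.11 ± 0.28), and Fos 981 CPM in cluster 3 and 983 CPM in other cells (-0.02 ± 0.20). Nr4a1, an orphan nuclear receptor gene, averaged 1940 CPM in cluster 3 and 1537 CPM in other cells (0.35 ± 0.22), and was highest in cluster 2, at 2847 CPM. Handling of the tissue can also induce immediate early genes, and its part was not tested.

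Metabolic and structural genes also differed by group. Hilpda, a lipid droplet protein gene induced by fatty acids and low oxygen, averaged 3184 CPM in cluster 3 and 863 CPM in other cells (1.89 ± 0.20), and Dgat1, an enzyme of triglyceride synthesis, 342 and 108 CPM (1.65 ± 0.20). Both belong to the 9 lipid genes used, of which 4 were higher and 0 lower in all hashtags, and their list summed to 4266 CPM in cluster 3 and 1513 CPM in the other cells. Odc1, the first enzyme of polyamine synthesis, averaged 1682 CPM in cluster 3 and 470 CPM in other cells (1.84 ± 0.17). Most cytosolic ribosome genes lay slightly lower: of 81, 74 were lower and 1 was higher, with a median log2 ratio of -0.18. Their list summed to 295641 CPM in cluster 3 and 333415 CPM in the other cells. Of the respiratory chain, 8 of 11 genes of complex IV were lower and 0 higher, and 7 of 12 genes encoded in mitochondrial DNA were lower and 0 higher. In the other complexes the lower genes were near the 30.1% of all genes, with 9 of 34 for complex I, 4 of 13 for complexes II and III and 6 of 17 for complex V. Only 1, 2 and 2 genes of these lists were higher, against 22.8% of all genes. Their median log2 ratios were -0.19, -0.15 and -0.16, beside -0.17 for complex IV and -0.08 for all genes. CPM are shares of a fixed total, so a group that takes a larger share lowers the others. Of 16 genes of the galectin, S100, annexin and vimentin list, 12 were lower and 0 higher. Lgals1, which encodes galectin-1, averaged 304 CPM in cluster 3 and 545 CPM in other cells (-0.82 ± 0.16). Of 14 heat-shock genes, 10 were lower, while Dnaja1 (1058 CPM in cluster 3, 594 CPM in other cells) and Hspa4 (234 CPM in cluster 3, 132 CPM in other cells) were higher in all hashtags.

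Receptors for surface and neural signals showed both directions. Icos, a co-stimulatory receptor gene, averaged 822 CPM in cluster 3 and 280 CPM in other cells (1.55 ± 0.14), and Pdcd1, the gene of PD-1, 366 and 147 CPM (1.29 ± 0.28). Both were among the 4 of 8 co-stimulatory and checkpoint genes that were higher in all hashtags, while Cd69 was lower. Icos was next highest in cluster 2, at 505 CPM, against 108 to 300 CPM in clusters 0, 1, 4 and 5. Cxcr6, a chemokine receptor of tissue-resident lymphocytes, averaged 1183 CPM in cluster 3 and 477 CPM in other cells (1.31 ± 0.24) and Ccr4 104 CPM in cluster 3 and 29.5 CPM in other cells (1.79 ± 0.17). Of 5 genes of neurotransmitter and neuropeptide receptors at this level, Ramp3 and Adora2a (161 CPM in cluster 3, 90.6 CPM in other cells) were higher and Ramp1 (266 CPM in cluster 3, 365 CPM in other cells) and Vipr2 (47.1 CPM in cluster 3, 83.3 CPM in other cells) lower in all hashtags. Calcrl, which encodes the receptor that RAMP proteins partner, averaged 41.5 CPM in cluster 3 and 50.4 CPM in the other cells, higher in 1 of 8 hashtags. The proliferation marker Mki67 averaged 3.15 CPM in cluster 3 and 7.42 CPM in the other cells, and 1.75% of cluster 3 cells had a UMI of it. By cluster it stood at 22.5 CPM in cluster 5, 7.22 CPM in cluster 1 and 4.27 CPM in cluster 4. Clusters 0 and 2, at 2.90 and 1.57 CPM, were below cluster 3. The 35 genes of the proliferation list summed to 1936 CPM in cluster 3 and 1675 CPM in the other cells.

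The share of cells that belonged to cluster 3 varied as much within treatments as between them. It was 11.4% (Wilson 95% interval 9.78% to 13.3%), 17.0% (15% to 19.3%) and 20.1% (18.1% to 22.2%) in the IL-33 plus dopamine hashtags. It was 7.74% (6.49% to 9.22%), 10.1% (8.43% to 12%) and 11.9% (10.4% to 13.7%) in the IL-33 hashtags, and 20.6% (16.5% to 25.4%) and 11.4% (9.28% to 13.8%) in the PBS hashtags. The intervals cover counting error only. The mean was 16.2% ± 4.39 (SD, n = 3) for IL-33 plus dopamine, 9.92% ± 2.1 (n = 3) for IL-33 and 16% ± 6.52 (n = 2) for PBS, and every pair of treatments overlapped. IL-33 plus dopamine minus IL-33 was 6.26 percentage points (exact two-sided permutation p = 0.2, where 0.1 is the smallest p that 3 against 3 hashtags can give; 0.6 adjusted over the 3 pairs). IL-33 minus PBS was -6.05 points (exact permutation p = 0.4, smallest possible 0.2) and IL-33 plus dopamine minus PBS 0.206 points (exact permutation p = 1.0). Clusters follow gene expression, and Areg, which was high in cluster 3, also rose within it in both treatments with IL-33 against PBS, so shares are given as a description. Fewer cells of a kind and a shift of cells across a cluster border cannot be told apart.

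**Figure D3:**
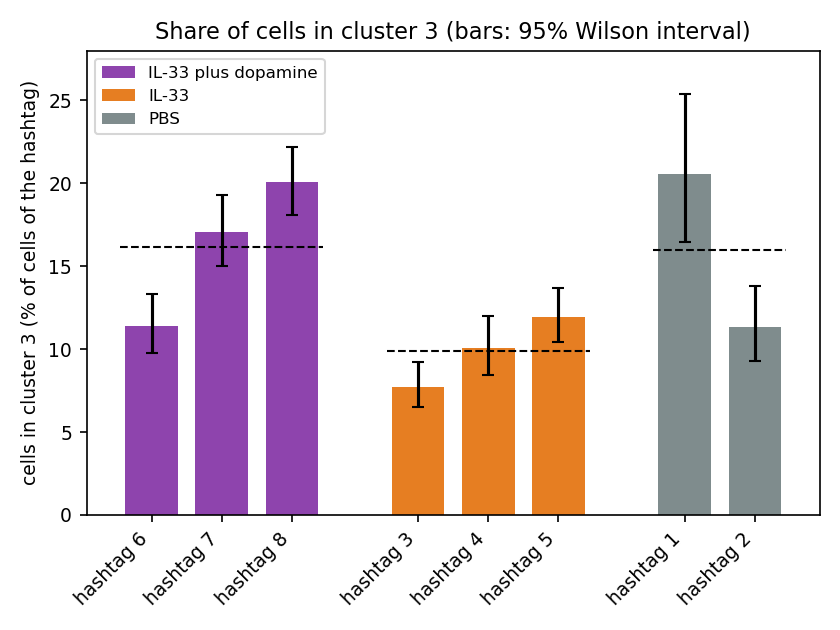
Bars give the share of each hashtag's cells that belonged to cluster 3, in percent, grouped by treatment, with Wilson 95% intervals as error bars and dashed lines at the treatment means. The IL-33 plus dopamine bars run from 11.4% to 20.1%, the IL-33 bars from 7.74% to 11.9% and the PBS bars from 11.4% to 20.6%.

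The comparison of IL-33 plus dopamine with IL-33 inside cluster 3 covered the cells of the cluster with the highest Il5 and Il13 levels. Over all hashtags these cells held 62.8% of the Il5 UMIs and 50.1% of the Il13 UMIs, but 32.2% of those of Areg, 30.7% of Cxcl2 and 25.1% of Csf2. Cells were placed in the cluster by their expression after treatment, so cells in which a treatment changed genes such as Il5 may lie outside it. Similar levels inside the cluster therefore do not show that a treatment left these genes unchanged. The same limit holds for every treatment comparison inside cluster 3. Il5, Il13, Areg, Csf2 and Gata3 overlapped between the treatments, and none of the genes tested passed. Counts were summed per hashtag and tested with edgeR's quasi-likelihood test, Benjamini-Hochberg adjusted over all genes tested, with 0.05 as the limit for a call. Of 6493 genes, 0 passed (0%), 350 (5.39%) had an unadjusted p under 0.05, and DESeq2 also called 0 (109 at an unadjusted p under 0.05). The 3 dopamine values lay above all 3 IL-33 values for 403 genes (6.21%) and below all of them for 314 (4.84%). By the same test, 3 genes passed in cluster 0, 6 in cluster 1, 0 in cluster 2, 4 in cluster 4 and 19 in cluster 5.

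Il5 stood at 2644, 2560 and 2622 CPM with IL-33 plus dopamine and at 2036, 2784 and 2072 CPM with IL-33 (log2 fold change 0.17 ± 0.09 SE, adjusted p = 0.843 by edgeR's quasi-likelihood test). The dopamine values were close together and lay inside the range of the IL-33 values. Il13 had a log2 fold change of -0.12 ± 0.09 (edgeR adjusted p = 0.892), Areg of -0.07 ± 0.08 (0.932), Csf2 of -0.23 ± 0.09 (0.843) and Gata3 of 0.17 ± 0.08 (0.843). Icos stood at 824, 769 and 942 CPM with IL-33 plus dopamine and at 670, 715 and 637 CPM with IL-33, without overlap, and did not pass (0.32 ± 0.10, edgeR adjusted p = 0.596). Among 8 further genes of the fixed list (Il1rl1, Il4, Klrg1, Il7r, Nr4a1, Fos, Crem and Tnfaip3) the lowest adjusted p was 0.843. A p that misses the threshold does not show that the levels were the same.

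The lowest adjusted p, 0.158, was shared by Ramp3, Ltb4r1 and Cd3g. Ramp3 stood at 1011, 1165 and 1190 CPM with IL-33 plus dopamine and at 762, 894 and 666 CPM with IL-33 (0.53 ± 0.10, edgeR adjusted p = 0.158). The PBS hashtags, at 1045 and 949 CPM, lay near the dopamine values. Ltb4r1, a leukotriene B4 receptor gene, stood at 199, 203 and 164 CPM with IL-33 plus dopamine and at 254, 267 and 309 CPM with IL-33 (-0.58 ± 0.12, edgeR adjusted p = 0.158), against 170 and 159 CPM with PBS. Tnfsf11, which encodes the cytokine RANKL, stood at 220, 224 and 233 CPM with IL-33 plus dopamine and at 314, 286 and 292 CPM with IL-33 (-0.41 ± 0.11, edgeR adjusted p = 0.511). For each of these genes the 2 treatments did not overlap, and none passed. Odc1 stood at 1751, 1651 and 2199 CPM with IL-33 plus dopamine and at 1531, 1317 and 1468 CPM with IL-33 (0.36 ± 0.10, edgeR adjusted p = 0.511) and Irs2, an adaptor of insulin and cytokine receptors, at 619, 642 and 674 CPM with IL-33 plus dopamine and 511, 493 and 533 CPM with IL-33 (0.32 ± 0.09, 0.517). Prnp (0.68, adjusted p = 0.39), Litaf (0.53, 0.511) and Akap8l (0.57, 0.596) completed the higher side by edgeR's quasi-likelihood test. On the lower side Cd3g stood at 35.5, 32.4 and 23.6 CPM with IL-33 plus dopamine and at 49.0, 68.6 and 63.0 CPM with IL-33 (-1.03 ± 0.21, edgeR adjusted p = 0.158). Slc6a13 (-1.01, adjusted p = 0.179), Tph1, the gene of the first enzyme of serotonin synthesis (-0.76, 0.405), and Ccrl2 (-0.64, 0.511) did not pass edgeR's test either.

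By list, 0 genes passed in any direction, and counts without overlap are set beside the 6.21% and 4.84% of all genes. Of 22 MYC target genes, 7 were higher without overlap (Nop56, Nop58, Nolc1, Nhp2, Ddx21, Eif4a1 and Odc1) and 0 lower, with a median log2 fold change of 0.07. These genes serve ribosome assembly and translation, apart from Odc1. Of 82 cytosolic ribosome genes, 1 was higher and 10 were lower without overlap (median -0.04). Of 20 NF-kB genes, 4 were higher and 0 lower, and of 19 actin regulators 0 were higher and 4 lower. Of 17 type 2 effector genes, 0 were higher and 1, Tnfsf11, lower, with a median of -0.19. By edgeR's quasi-likelihood test, 6 of these 17 had an unadjusted p under 0.05, against 5.39% of all genes. Genes of the respiratory chain, which bear on the mitochondrial activity that the series is titled for, were nearly all within the overlap: 1 of 36 complex I genes was higher and 0 lower, and 0 of 11 complex IV genes and 0 of 13 genes encoded in mitochondrial DNA lay apart in either direction.

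The comparison of IL-33 with PBS inside cluster 3 set cells of different hashtags side by side. Cells that entered the cluster with IL-33 and changes within cells cannot be told apart. Areg, Cxcl2, Csf2 and Plscr1 rose, and Il5 lay just short of the threshold. Of 6566 genes, these 4 passed (0.0609%), all higher with IL-33 and 0 lower (0%), while 512 (7.8%) had an unadjusted p under 0.05. Areg stood at 3324, 3627 and 3104 CPM with IL-33 and at 1517 and 2217 CPM with PBS (log2 fold change 0.83 ± 0.12 SE, adjusted p = 0.00222 by edgeR's quasi-likelihood test). Cxcl2, a chemokine gene that draws neutrophils, stood at 4552, 3064 and 2580 CPM with IL-33 and at 1283 and 1725 CPM with PBS (1.17 ± 0.17, edgeR adjusted p = 0.0025). In both genes every IL-33 value lay above every PBS value. Over all of cluster 3 the median cell had 1 UMI of Cxcl2 and the highest 396. The top 10% of cells held 61.3% of the cluster's Cxcl2 UMIs, so few cells weigh heavily in its sums. Csf2 stood at 2896, 2812 and 2274 CPM with IL-33 and at 1510 and 1764 CPM with PBS (0.69 ± 0.10, edgeR adjusted p = 0.0025). Plscr1, a phospholipid scramblase gene, stood at 244, 246 and 279 CPM with IL-33 and at 125 and 155 CPM with PBS (0.86 ± 0.16, edgeR adjusted p = 0.0399). Markers of basophils and mast cells moved in the same comparison: their 5 members in the table summed to 20.9 to 65.6 CPM in the IL-33 hashtags and to 6.41 and 15 CPM in the PBS hashtags of cluster 3, and their part in the result was not tested. In the IL-33 plus dopamine hashtags they summed to 21.6 to 56.2 CPM. Of the 10 listed, 2 passed the filter on low counts, Cpa3 and Hdc, with a median log2 fold change of 2.07, and neither passed the adjusted threshold. Other marker sums were also higher with IL-33 without overlap: fibroblasts (11.9 to 14.9 CPM, against 4.30 and 6.41 CPM with PBS), T cells, ILC3s, and macrophages and monocytes. Dendritic cell markers were lower, at 82.9 to 99.8 CPM with IL-33 against 109 and 120 CPM with PBS. The part of these was not tested either. PBS rests on 2 hashtags of 64 and 85 cells. Without hashtag 1 the lone PBS sample was assumed to vary like the other groups, and the count of calls was 0 (435 genes at an unadjusted p under 0.05), with log2 fold changes of 0.61 for Areg, 0.99 for Cxcl2, 0.60 for Csf2 and 0.74 for Plscr1.

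Il5 stood at 2036, 2784 and 2072 CPM with IL-33 and at 1299 and 1701 CPM with PBS, without overlap, and did not pass (0.60 ± 0.12, edgeR adjusted p = 0.0526). Il13 (0.26 ± 0.11, edgeR adjusted p = 0.556) and Gata3 (-0.20 ± 0.09, 0.628) did not pass. On the other side Icos stood at 670, 715 and 637 CPM with IL-33 and at 1167 and 855 CPM with PBS (-0.58 ± 0.13, edgeR adjusted p = 0.139), so that its IL-33 values were the lowest of the 3 treatments. Atf3, a stress-induced AP-1 family gene, stood at 350, 232 and 261 CPM with IL-33 and at 471 and 434 CPM with PBS (-0.69 ± 0.15, 0.139 by the same test). Ltb4r1 (0.76 ± 0.16, edgeR adjusted p = 0.116), Cebpb (-0.57, 0.152), Ndufa5 (-1.07, 0.152), Malat1 (-0.26, 0.152) and Prr7 (-0.66, 0.214) did not pass either. Of 16 type 2 effector genes, 3 passed (Areg, Cxcl2 and Csf2). In this list 7 were higher without overlap (the same 3 with Il5, Ccl5, Cxcl3 and Tnfsf11) and 0 lower, with a median of 0.55, where 13.8% and 12.4% of all genes were higher and lower without overlap. Of 19 genes of the cyclic AMP list 1, Areg, passed. Of 26 immediate early genes, 1 was higher and 6 were lower without overlap (Fosb, Junb, Jund, Atf3, Klf4 and Rhob), and 0 passed.

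The comparison of IL-33 plus dopamine with PBS shares its PBS hashtags with the one before, so the 2 are not independent. Areg, Il5 and Cxcl2 rose and Eprs fell, and these 4 of 6566 genes passed (0.0609%; 3 higher, 0.0457%, and 1 lower, 0.0152%), while 397 (6.05%) had an unadjusted p under 0.05. Il5 stood at 2644, 2560 and 2622 CPM with IL-33 plus dopamine and at 1299 and 1701 CPM with PBS (0.77 ± 0.12, edgeR adjusted p = 0.0045). Areg stood at 2851, 3505 and 3318 CPM with IL-33 plus dopamine and at 1517 and 2217 CPM with PBS (0.77 ± 0.12, edgeR adjusted p = 0.0045), and Cxcl2 at 3137, 2551 and 3384 CPM with IL-33 plus dopamine and 1283 and 1725 CPM with PBS (0.99 ± 0.17, edgeR adjusted p = 0.0179). All dopamine values lay above both PBS values in these genes. Eprs, the gene of the glutamyl-prolyl-tRNA synthetase, stood at 1019, 964 and 1253 CPM with IL-33 plus dopamine and at 1696 and 1549 CPM with PBS (-0.60 ± 0.11, edgeR adjusted p = 0.0328), and its IL-33 values, 1103, 1203 and 1275 CPM, lay with the dopamine ones. Csf2 did not pass here, at 2443, 2456 and 2008 CPM with IL-33 plus dopamine and 1510 and 1764 CPM with PBS (0.47 ± 0.10, edgeR adjusted p = 0.187). Without hashtag 1, by the same assumption, the count of calls was 0 (372 genes at an unadjusted p under 0.05), with log2 fold changes of 0.54 for Areg, 0.61 for Il5, 0.81 for Cxcl2 and -0.52 for Eprs.

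Several further genes lay apart without passing. Tent5a stood at 932, 1011 and 689 CPM with IL-33 plus dopamine and at 487 and 550 CPM with PBS (0.73 ± 0.14, edgeR adjusted p = 0.0576). Pdcd1 stood at 437, 485 and 381 CPM with IL-33 plus dopamine and at 231 and 303 CPM with PBS (0.66 ± 0.15, edgeR adjusted p = 0.187), and Fth1, the ferritin heavy chain gene, at 3938, 4346 and 4000 CPM with IL-33 plus dopamine and 4986 and 5127 CPM with PBS (-0.32 ± 0.07, 0.187). Mast4 (-0.71, edgeR adjusted p = 0.364), Klf4 (-0.41, 0.563), Hnrnpa1 (-0.48, 0.563) and Chd7 (-0.50, 0.563) were lower without overlap. Il13 (0.14), Gata3 (-0.03) and Icos (-0.26) overlapped between the 2 treatments. Of 16 type 2 effector genes, 3 passed, 6 were higher without overlap and 2, Il6 and Tnfsf11, lower, where 14.4% and 12.4% of all genes were higher and lower without overlap. Of 16 heat-shock genes, 2 were higher and 6 lower without overlap, and 0 passed.

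**Figure D4:**
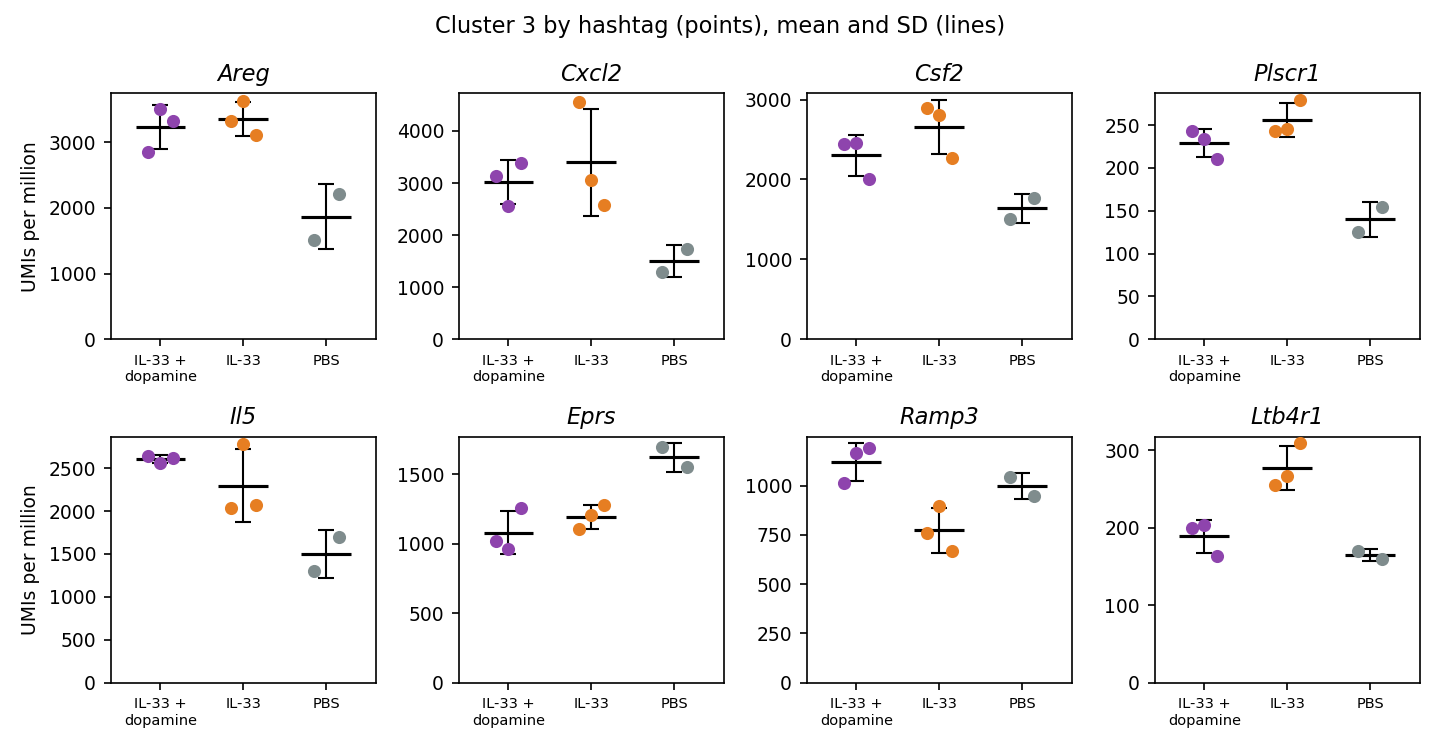
Each point is the CPM of a gene in the cluster 3 cells of 1 hashtag, by treatment, with the mean and SD. Areg, Cxcl2, Csf2 and Plscr1 passed for IL-33 against PBS, Areg, Cxcl2, Il5 and Eprs for IL-33 plus dopamine against PBS, and Ramp3 and Ltb4r1 did not pass in any comparison.

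Whether a treatment acted differently in cluster 3 than in the other cells was tested as an interaction, with cluster 3 and all other cells of a hashtag as a pair. The other cells were a different mix of clusters in each hashtag: cluster 5 gave 84, 170 and 26 cells in the IL-33 plus dopamine hashtags, 327, 97 and 178 cells in the IL-33 hashtags and 8 and 23 cells in the PBS hashtags. In the other cells a change of level within cells and a change of this mix cannot be told apart, so each interaction was also fitted against cluster 2 alone. The dopamine effect differed for 6 of 9793 genes (0.0613%; 2 higher, 0.0204%, and 4 lower, 0.0408%), and 532 (5.43%) had an unadjusted p under 0.05. Klf4, a transcription factor gene of the Krueppel-like family, averaged 578 CPM with IL-33 plus dopamine and 652 CPM with IL-33 in cluster 3, and 292 CPM with dopamine and 230 CPM with IL-33 in the other cells (difference of log2 fold changes -0.51 ± 0.10 SE, edgeR adjusted p = 0.0355). Its log2 ratio of cluster 3 to the other cells was 0.75, 1.11 and 1.08 in the dopamine hashtags and 1.51, 1.56 and 1.46 in the IL-33 hashtags, without overlap. Tnfsf11 averaged 226 CPM with dopamine and 297 CPM with IL-33 in cluster 3, and 220 CPM with dopamine and 199 CPM with IL-33 in the other cells (-0.53 ± 0.11, edgeR adjusted p = 0.0423). Its log2 ratio was 0.05, 0.08 and -0.01 in the dopamine hashtags and 0.63, 0.77 and 0.37 in the IL-33 hashtags, so the excess in cluster 3 seen with IL-33 was near 0 with dopamine. Il2, the T cell growth factor gene, averaged 187 CPM with dopamine and 111 CPM with IL-33 in cluster 3, and 167 CPM with dopamine and 156 CPM with IL-33 in the other cells (0.66 ± 0.14, edgeR adjusted p = 0.0423), with log2 ratios of 0.24, -0.09 and 0.28 in the dopamine hashtags and -0.90, -0.29 and -0.42 in the IL-33 hashtags.

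Ptgs2, the gene of cyclooxygenase 2, averaged 195 CPM with dopamine and 166 CPM with IL-33 in cluster 3, and 29.5 CPM with dopamine and 47.9 CPM with IL-33 in the other cells (0.97 ± 0.20, edgeR adjusted p = 0.0423). It was carried by few cells: 15.7% of cluster 3 cells had a UMI and the top 10% held 93.0% of its UMIs. Spty2d1, which encodes a histone chaperone, averaged 779 CPM with dopamine and 944 CPM with IL-33 in cluster 3, and 298 CPM with dopamine and 265 CPM with IL-33 in the other cells (-0.45 ± 0.09, 0.0423 by the same test). Bambi, the gene of a decoy receptor of the TGF-beta family, averaged 106 CPM with dopamine and 154 CPM with IL-33 in cluster 3, and 98.0 CPM with dopamine and 71.2 CPM with IL-33 in the other cells (-0.94 ± 0.19, 0.0423), and its values in the IL-33 hashtags of cluster 3 were wide apart, at 68.9, 219 and 175 CPM. With another size factor method (RLE) 1 of the 6 calls, Klf4, was left, and against cluster 2 alone, the most similar cluster, 0 genes passed (380 at an unadjusted p under 0.05). Klf4 then had a difference of 0.02, Tnfsf11 of -0.39, Il2 of 0.59 and Ptgs2 of 0.32.

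The IL-33 effect differed for 3 of 7916 genes (0.0379%; 2 higher, 0.0253%, and 1 lower, 0.0126%), while 522 (6.59%) had an unadjusted p under 0.05. Cxcl2 averaged 3399 CPM with IL-33 and 1504 CPM with PBS in cluster 3, and 1165 CPM with IL-33 and 1234 CPM with PBS in the other cells (difference 1.21 ± 0.15, edgeR adjusted p = 0.000127). Its log2 ratio of cluster 3 to the other cells was 1.77, 1.46 and 1.3 in the IL-33 hashtags and -0.17 and 0.75 in the PBS hashtags. Thus Cxcl2 was higher in cluster 3 than in the other cells in all 3 IL-33 hashtags and in 1 of the 2 PBS hashtags. Nr4a1, an orphan nuclear receptor gene, averaged 1973 CPM with IL-33 and 1833 CPM with PBS in cluster 3, and 1376 CPM with IL-33 and 1779 CPM with PBS in the other cells (0.50 ± 0.07, edgeR adjusted p = 0.00102). Crip1, a small LIM domain protein gene, averaged 577 CPM with IL-33 and 591 CPM with PBS in cluster 3, and 904 CPM with IL-33 and 493 CPM with PBS in the other cells (-0.85 ± 0.14, edgeR adjusted p = 0.0104), and without hashtag 1 the difference was -0.54 and did not pass. For Nr4a1 and Crip1 the treatments differed by more in the other cells than in cluster 3. Against cluster 2 alone, 2 genes passed and these 3 did not, with differences of 0.61 for Cxcl2, 0.33 for Nr4a1 and -0.06 for Crip1. Areg, which rose in cluster 3, had an interaction of 0.36 ± 0.15 and Csf2 one of 0.01 ± 0.14 (edgeR adjusted p = 0.67 and 0.999), so the rise of neither was shown to differ from that in the other cells.

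**Figure D5:**
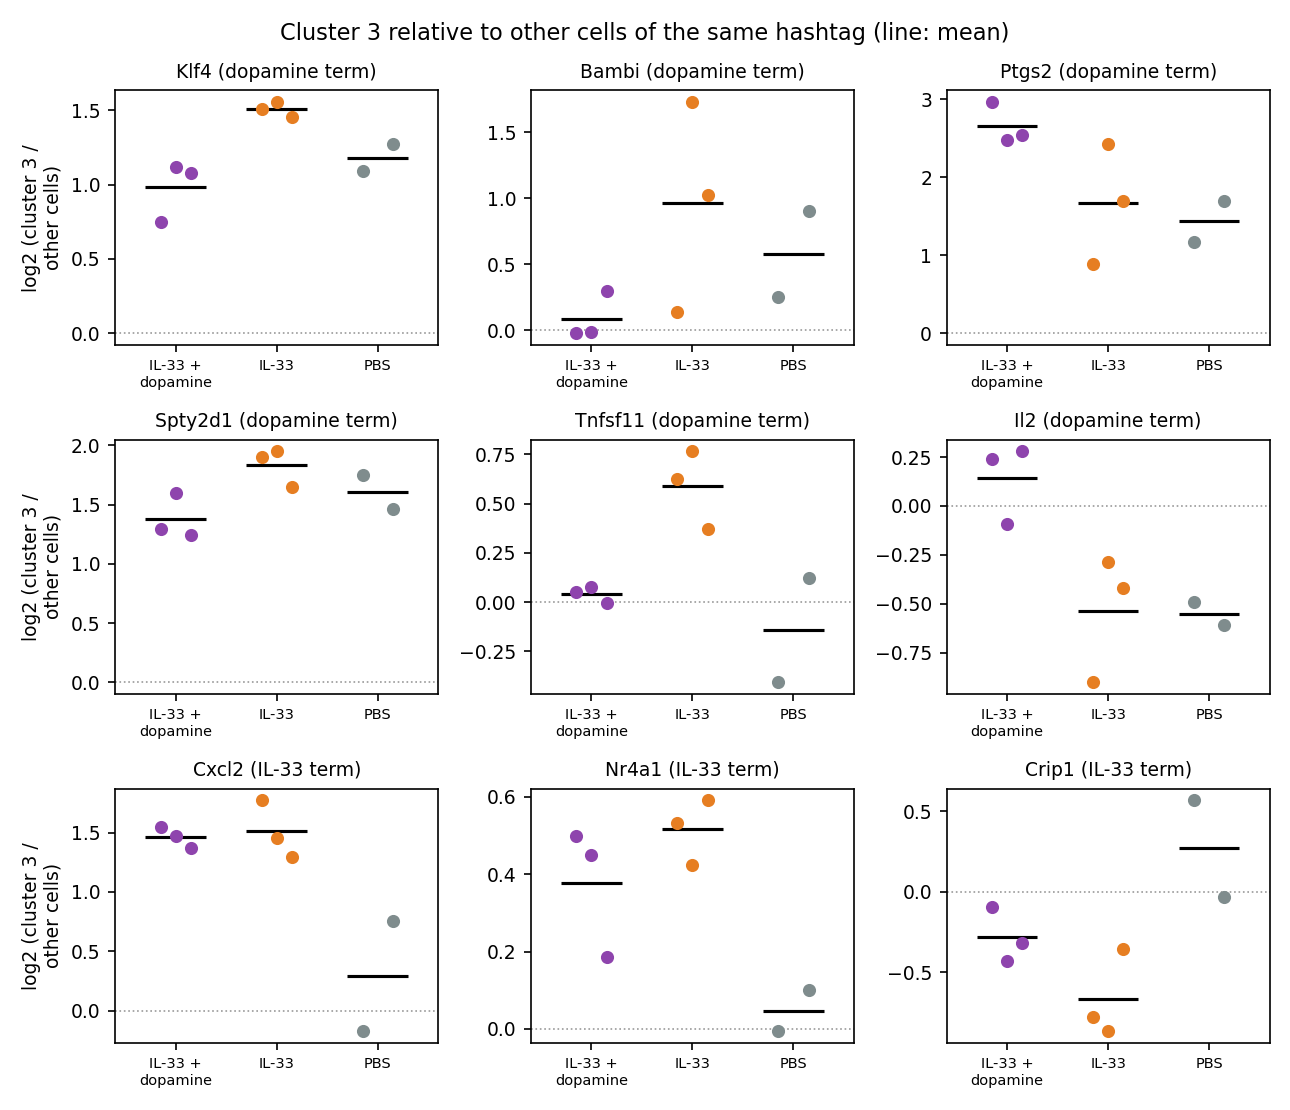
Each point is the log2 ratio of CPM in cluster 3 to CPM in the other cells of the same hashtag, for the 6 genes with a different dopamine effect and the 3 with a different IL-33 effect, with black lines at the treatment means. Tnfsf11 lies between -0.01 and 0.08 in the IL-33 plus dopamine hashtags and between 0.37 and 0.77 in the IL-33 hashtags, and Cxcl2 between 1.3 and 1.77 in the IL-33 hashtags and at -0.17 and 0.75 in the PBS hashtags.

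The bulk libraries give the genes that define cluster 3 in other mice, of the other sex and with another library type, for IL-33 plus dopamine against IL-33 plus PBS. Values are transcripts per 1000000 (TPM), and tests used limma on log2(TPM + 1). Of 11222 genes 4 passed (0.0356%), and none was a leading or low gene of cluster 3. The median log2 fold change of all genes was 0.49, so changes are also given relative to it. Each adjusted p tests the log2 fold change itself, not the change relative to the median. Of 19 leading genes tested, 11 lay above that median (50% of all genes do), 8 were higher and 1 lower without overlap (23.5% and 6.57% of all genes), and their median relative change was 0.09. Of the 12 low genes, 8 lay above the median, 4 were higher and 0 lower without overlap, and their median relative change was 0.18.

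Il5 stood at 574, 236 and 637 TPM with dopamine and at 664, 400 and 570 TPM with PBS (log2 fold change -0.27, adjusted p = 0.646 by limma, relative change -0.76). Il13 stood at 23.0, 30.0 and 20.7 TPM with dopamine and at 30.0, 29.4 and 32.8 TPM with PBS (-0.33, limma adjusted p = 0.548, relative change -0.82). Both overlapped. Plaur stood at 139, 165 and 150 TPM with dopamine and at 69.7, 21.1 and 40.8 TPM with PBS (log2 fold change 1.91, adjusted p = 0.0832 by limma, relative change 1.42). Errfi1 stood at 35.5, 46.6 and 44.9 TPM with dopamine and at 12.4, 8.08 and 12.9 TPM with PBS (1.86, limma adjusted p = 0.0832, relative change 1.36). Crem stood at 693, 806 and 839 TPM with dopamine and at 463, 361 and 527 TPM with PBS (0.80, limma adjusted p = 0.0832, relative change 0.31). These leading genes lay apart without overlap and did not pass. Muc1, the 1 leading gene lower without overlap, had a log2 fold change of -1.26 (limma adjusted p = 0.242, relative change -1.75). The 4 low genes that were higher without overlap were Txnip (1.58, relative change 1.09), Zfp36l2 (1.25, 0.75), Hspa1b (0.96, 0.47) and Cd69 (0.72, 0.22), and none passed. Ptgs2 stood at 44.9, 40.0 and 35.5 TPM with dopamine and at 16.1, 11.1 and 7.93 TPM with PBS (1.74, adjusted p = 0.0832 by limma, relative change 1.24). In bulk, a change in the share of cells like those of cluster 3 and a change of RNA per cell cannot be told apart. The count of calls rests on single libraries: by limma, 0 genes passed without PBS library 2 (1569 at an unadjusted p under 0.05), 90 without PBS library 3, 1536 without PBS library 1 and 1 without dopamine library 2.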

How the data were processed

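Per the submitters' processing notes, cutadapt 2.10, STAR 2.7.5c, RSEM 1.3.3, Cell Ranger 6.1.1, Seurat 4.0.2 and the build mm10 were used. Settings, and how the clusters were made, are not given in the sources used here. The droplet table as deposited holds whole-number UMI counts of 15083 genes, and the deposited cell table gives each cell a hashtag, a treatment, a cluster number and the percent of mitochondrial UMIs (at most 7.50%, with at least 1836 UMIs and 1001 genes per cell). The bulk values were TPM, scaled by the authors, so their depth is unknown. Every deposited cell carried 1 hashtag, no barcode was listed more than once, and no doublet caller was run, so doublets within a hashtag may remain.

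Members and gene lists were chosen with earlier results of these data known. Counts of cluster 3 cells were summed per hashtag and scaled to 1000000 for levels (CPM). Because each molecule is counted once at its 3' end, CPM need no correction for length. Tests used edgeR 4.0.16 (TMM, filterByExpr, quasi-likelihood) in R 4.3.3. The fit for IL-33 plus dopamine against IL-33 held those 6 hashtags. Both comparisons with PBS came from a single fit of all 8 hashtags. The interactions used the hashtag as a block. Bulk TPM were tested with limma 3.58.1 (trend) over genes that reached 1 TPM in 3 or more libraries. For shares of cells, exact permutation tests (two-sided, scipy 1.17.1) were used. Simulated data with known changes were run for 3 against 3 hashtags, for the dopamine interaction and for 3 against 3 bulk libraries. The comparisons with PBS and the IL-33 interaction were not simulated. DESeq2 1.42.0, other scalings and filters, cells of middling UMI count and each hashtag or library left out served as alternatives.

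Leading genes were the 20 with the highest mean log2 ratio among genes with at least 50 CPM in cluster 3 that were higher in every hashtag, and low genes the 12 lowest by the mirrored rule, leaving out predicted genes. For each treatment comparison the text names passing genes with at least 50 CPM and no overlap, filled up to 6 per direction with genes at an unadjusted p under 0.05, and a fixed list. Upstream sequences are from RefSeq (GRCm38.p6), and 14891 of 15083 symbols matched GENCODE M21.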

Additional observations from a re-analysis of the deposited data

Results flagged for a closer look

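The 9 results below stand out because a treatment effect in cluster 3 differed from the effect of the same treatment in the other cells of the same hashtags, by the interaction term of edgeR's quasi-likelihood test. For IL-33 plus dopamine against IL-33, the difference of log2 fold changes was -0.51 for Klf4, -0.94 for Bambi, 0.97 for Ptgs2, -0.45 for Spty2d1, -0.53 for Tnfsf11 and 0.66 for Il2. Of these, Bambi and Ptgs2 had the widest spread between hashtags in cluster 3, and leaving out a single hashtag gave -1.22 to -0.62 for Bambi and 0.68 to 1.29 for Ptgs2. For IL-33 against PBS, the difference was 1.21 for Cxcl2, 0.50 for Nr4a1 and -0.85 for Crip1. Leaving out a single hashtag gave 0.83 to 1.74 for Cxcl2, 0.48 to 0.58 for Nr4a1 and -1.16 to -0.54 for Crip1. None of the 9 passed when cluster 2 alone took the place of the other cells.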

How the results depend on the processing

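Calls were few and moved with the settings. For IL-33 plus dopamine against IL-33 in cluster 3, 26 genes passed without a filter on low counts, and 0 to 7 with a hashtag left out, instead of 0. For IL-33 against PBS, the 4 calls became 33 without a filter, 10 with DESeq2 and 0 to 7 with a hashtag left out. For IL-33 plus dopamine against PBS, the 4 calls became 22 without a filter and 0 to 9 with a hashtag left out. Both comparisons with PBS gave 0 calls without hashtag 1, which leaves 1 PBS sample whose spread is taken from the other groups, while every gene called kept its direction. The 6 calls of the dopamine interaction became 1 with RLE size factors, 0 against the most similar cluster and 1 to 5 with a hashtag left out, and the 3 of the IL-33 interaction 4 to 17 with a hashtag left out. Without the hashtag as a replicate block, both interactions gave 0 calls by edgeR's quasi-likelihood test (405 and 453 genes at an unadjusted p under 0.05). In bulk the 4 calls became 2 with a pseudocount of 5, 2 with a mean TPM of at least 5, 0 without a filter (limma, 2712 genes at an unadjusted p under 0.05), 21 with quantile normalization and 0 to 1536 with a library left out. With the library number as a replicate block they became 15, but the labels do not say that a number marks a shared mouse or day. Of the 20 leading genes, 12 stayed with the ratio to the highest other cluster and 13 with a limit of 20 CPM. The share of IL-33 plus dopamine minus PBS turned from 0.206 to -0.267 points in cells of middling UMI count, and ran from -4.40 to 4.81 with a hashtag left out. Among single genes, the sign turned for Areg under IL-33 plus dopamine against IL-33 (-0.13 to 0.021 with a hashtag left out), for Gata3 under IL-33 plus dopamine against PBS (0.016 without a filter, -0.12 to 0.025 with a hashtag left out) and for the Klf4 interaction (0.021 against the most similar cluster). The causes were not tested, apart from the fewer samples or genes that a setting leaves. The 2 PBS hashtags, with 64 and 85 cluster 3 cells, limit the depth most.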
